A study of Mus musculus with 33 samples.

Results

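The epidermal differentiation complex is a run of genes on mouse chromosome 3 that encode structural and calcium-binding proteins of cornifying epithelia, and its transcripts were followed through the hair cycle in whole dorsal skin. Members were taken by symbol: all genes whose name begins with Lce, Sprr or S100a, with S100a8 and S100a9 left out, and Flg, Flg2, Hrnr, Rptn, Ivl and Lor (loricrin). Only probe sets that carry 1 symbol were used, the one with the highest mean log2 signal standing for its gene, which gave 39 genes (50 probe sets) of the 18193 genes measured, and 34 of the 39 passed a filter on low signals. These were 15 of 15 Lce genes, 6 of 9 Sprr genes, 8 of 10 S100a genes, all 3 of the S100-fused genes measured (Flg, Hrnr and Rptn), and both Ivl and Lor. Flg2 was not analysed here. In the mouse assembly GRCm38.p6 the members lay on chromosome 3 between S100a1, which starts at 90511034, and S100a10, which ends at 93564645. Sprr2i, Sprr2j-ps, Sprr3, S100a5 and S100a7l2 were below the filter and entered no test. A gene could pass the filter through the phase where it was high, so counts of members refer to the 34 that passed and are read beside the share over all genes.

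Cornification is the last step of keratinocyte differentiation, in which transglutaminases crosslink proteins under the plasma membrane into an envelope that replaces it. Involucrin (Ivl) is an early scaffold, loricrin is the main reinforcement protein of the epidermal envelope, the small proline-rich proteins (Sprr) are crossbridges, and the late cornified envelope proteins (Lce) are added near the end. The S100-fused proteins aggregate keratin or join the envelope, and the S100a proteins are small calcium sensors. In haired skin these genes are used by the epidermis between follicles and by the upper follicle, and some are also used by the differentiating layers of the hair itself.

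RNA came from the upper-mid back of wild-type (WT) C57BL/6 mice, 1 mouse per array. The natural cycle was covered by early anagen (the start of growth, P23 and P25, 4 arrays, P being the postnatal day), mid anagen (P27, 3 arrays), late anagen (P29, 3 arrays), a single P34 array kept out of the phases, early catagen (regression, P37 and P39, 6 arrays), mid catagen (P41, 3 arrays) and telogen (rest, P44, 3 arrays). In the second course, all hair shafts in resting skin were pulled out with wax at 7 weeks of age, which starts growth and also injures the skin, and pairs of mice were taken at D3, D5, D8, D12 and D17, D being the day after depilation. The natural series held 10 females and 13 males, and all 10 depilated mice were female. Age and sex therefore differ between the courses. Females were 0 of 2 at P23, 1 of 2 at P25 and 2 of 3 at P29 and P39. At P27, P37, P41 and P44 they were 1 of 3. Phases of the natural cycle thus also differ in age and some of them in sex. Values are MAS 5.0 signals in arbitrary units. A log2 difference is given with its standard error and an adjusted p from limma, and a difference that involves a signal below the floor of 34.6 is given as a bound without error.

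The array medians lay between 111.2 and 142.5, and the number of arrays per phase limits the precision. Hair shaft marker genes summed to 1074 to 2937 in telogen and 181283 to 219825 in late anagen. Array P39 replicate 2 stood apart from the other early catagen arrays, with a summed signal of suprabasal epidermal markers of 27733 against 58961 to 73795. Array D5 replicate 2 had higher sums than replicate 1 for hair shaft (23750 against 7117), injury keratins (48611 against 14784) and neutrophil markers (34659 against 10422). The neutrophil sum at D5 came mostly from Stfa3, S100a8 and S100a9 (means 12859, 5408.5 and 4057), while Mmp9 and Csf3r had means of 113 and 103. Array P27 replicate 3 had a hair shaft sum of 28071, against 130977 and 138288 in the other mid anagen arrays. For some of the results that rest on these arrays, counts without them are given as well.

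The promoters of members with different courses over the cycle are shown here, as the 250 bases before the RefSeq transcription start, because the families differed in the short motifs these windows hold. Capitals mark matches on either strand, none of which overlap, to TGANTCA and to TATAAA, the TATA box. TGANTCA is a degenerate form of the site of AP-1 factors, which are known regulators of involucrin and loricrin. Windows were found for 35 of the 39 members.

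Lor, chr3:92083143-92083392, minus strand: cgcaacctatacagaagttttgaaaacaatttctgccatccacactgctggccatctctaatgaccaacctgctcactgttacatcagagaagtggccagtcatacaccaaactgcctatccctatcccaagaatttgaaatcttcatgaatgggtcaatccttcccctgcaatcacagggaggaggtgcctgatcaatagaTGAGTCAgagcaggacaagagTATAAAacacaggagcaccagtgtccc
Lce1m, chr3:93019062-93019311, minus strand: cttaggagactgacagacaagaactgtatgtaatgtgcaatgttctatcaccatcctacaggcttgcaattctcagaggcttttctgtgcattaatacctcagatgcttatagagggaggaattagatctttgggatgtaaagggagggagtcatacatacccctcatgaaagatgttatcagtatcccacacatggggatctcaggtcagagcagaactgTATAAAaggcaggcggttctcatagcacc
Sprr1a, chr3:92485882-92486131, minus strand: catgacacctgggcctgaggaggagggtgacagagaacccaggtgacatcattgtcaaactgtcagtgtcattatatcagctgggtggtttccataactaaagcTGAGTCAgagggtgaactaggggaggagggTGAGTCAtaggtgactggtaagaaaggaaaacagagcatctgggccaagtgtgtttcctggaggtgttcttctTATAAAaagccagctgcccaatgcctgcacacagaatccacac
Sprr2h, chr3:92385435-92385684, plus strand: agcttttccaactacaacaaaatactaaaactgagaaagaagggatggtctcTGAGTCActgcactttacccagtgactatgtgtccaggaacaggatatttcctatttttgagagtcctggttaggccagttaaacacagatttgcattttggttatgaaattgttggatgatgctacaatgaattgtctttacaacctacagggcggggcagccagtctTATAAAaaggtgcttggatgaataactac
Lce3c, chr3:92944236-92944485, plus strand: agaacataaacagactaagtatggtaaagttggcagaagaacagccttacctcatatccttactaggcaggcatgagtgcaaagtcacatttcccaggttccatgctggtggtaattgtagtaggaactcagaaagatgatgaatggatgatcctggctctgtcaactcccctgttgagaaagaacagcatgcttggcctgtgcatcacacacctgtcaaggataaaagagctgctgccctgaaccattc

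AP-1 letters were in 6.75% of all 32851 windows, in 7 of 8 Sprr genes, in both Ivl and Lor, in 2 of the 3 S100-fused genes, in 2 of 8 S100a genes and in 0 of 14 Lce genes. The matches of Flg, Sprr1b and S100a16 were TGAATCA and that of Rptn was TGATTCA, while those of the other members had C or G in the middle. TATA letters were in 12.4% of all windows, in 8 of 8 Sprr genes, in all 3 S100-fused genes, in Ivl and Lor, in 3 of 8 S100a genes and in 2 of 14 Lce genes, Lce1d and Lce1m. In Lor the AP-1 match began 48 bases before the start, in Sprr2h 198 bases, and in Sprr1a there were 2, at 146 and 116 bases. Neither motif was found in the window of Lce3c. CACCC, the core of a KLF site, was in 52% of all windows and in 5 of 14 Lce and 4 of 8 Sprr genes, and TTGNNNAA, a degenerate form of the C/EBP site, was in 33.3% of all windows and in 5 of 14 Lce and 5 of 8 Sprr genes. These matches describe letters in a window and say nothing of binding.

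Like those of most genes, transcripts of the complex changed with the phase of the natural cycle, and its families took different courses. In an F test over the 6 phases 30 of the 34 members passed, where 77.1% of all genes did. Lce1g, Lce3f, Sprr2d and Sprr2k did not pass. The highest phase mean fell in telogen for 12 of the 15 Lce genes and in early catagen for 4 of the 6 Sprr genes, and the lowest fell in late anagen for 11 Lce genes. These counts describe the means of phases without a test or a share over all genes. Both Lce counts include Lce3f, and that for telogen also Lce1g.

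**Figure D1:**
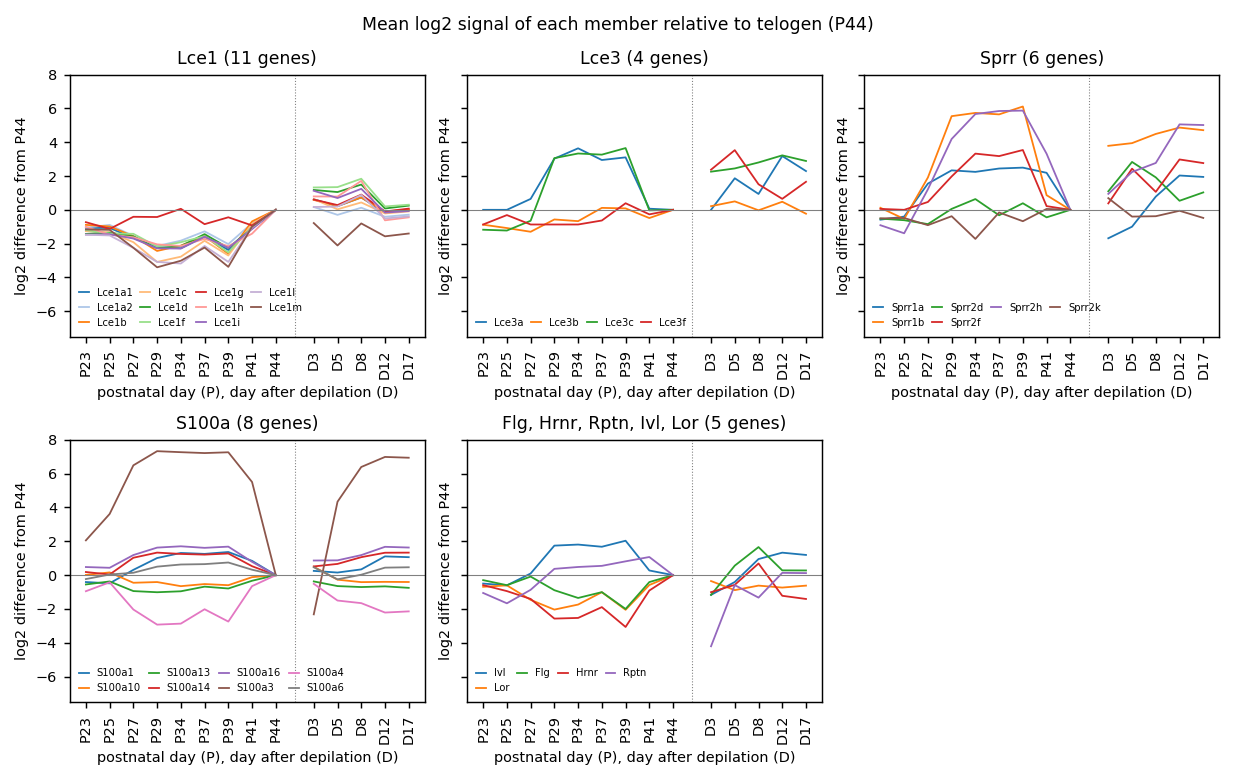
Difference of the mean log2 signal from telogen (P44) for each member at each time point, in panels for the Lce1, Lce3, Sprr, S100a and other members. Most Lce1 lines dip to late anagen and return by P44, while Sprr1b, Sprr2f, Sprr2h, Lce3a and Lce3c rise and stay high until P39.

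The widest contrast was that of telogen with late anagen. Relative to late anagen, telogen skin had more loricrin, Lce1 and hornerin transcript and less involucrin, Sprr and Lce3a and Lce3c transcript. Of the 34 members, 15 were higher in telogen and 12 lower, where 28.7% of all genes were higher and 20.5% lower. By family, 11 of 15 Lce genes were higher and 2 lower with a median log2 difference of 2.17, 0 of 6 Sprr genes were higher and 4 lower (median -2.15), and 2 of 8 S100a genes were higher and 5 lower (median -0.76), against a median of 0.08 over all genes. In whole skin, fewer cells of a type and less RNA per cell cannot be told apart.

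Among the envelope proteins, the signal of Lor was 34664, 38075 and 31968 on the telogen arrays and 7936, 9509 and 8059.7 on those of late anagen. All telogen arrays were above all late anagen arrays, and the log2 difference was 2.04 ± 0.14, adjusted p = 0.000186. Involucrin went the other way, with 3049, 2820.4 and 3154 in telogen and 9154, 10323 and 10799 in late anagen. The groups did not overlap and the log2 difference was -1.74 ± 0.13, adjusted p = 0.000226. Ivl lies at chr3:92570899-92573790 and Lor at chr3:92080271-92083142, and the promoter windows of both hold AP-1 letters.

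The Lce1 genes moved with Lor. Lce1m, at chr3:93017807-93019061, read 11949, 12143 and 12821 in telogen and 940.3, 1301 and 1296 in late anagen, a log2 difference of 3.40 ± 0.16, adjusted p = 6.95e-05. Lce1l read 808, 1135 and 1439 in telogen, against 115, 114 and 165 in late anagen (3.08 ± 0.26, adjusted p = 0.000314). The differences of the 10 Lce1 genes that passed ran from 2.04 (Lce1h) to 3.40 (Lce1m). Lce1g did not pass, and its signals stayed near the floor, with 55.4, 96.3 and 83.6 in telogen and 49.7, 107 and 31.6 in late anagen. Several Lce1 probe sets can bind transcripts of more than 1 of these near-identical genes, namely those of Lce1a1, Lce1d, Lce1h, Lce1i and Lce1m, and their separate courses are uncertain.

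The Lce3 genes, whose human counterparts are known from psoriatic and healing epidermis, split. Lce3c had signals of 45.3, 50.9 and 229 in telogen and 363, 890 and 942 in late anagen, and the difference was -3.06 ± 0.69, adjusted p = 0.0117. Its 3rd telogen array lay nearer to late anagen than the other telogen arrays, and no array overlapped. Lce3a was under the floor on all telogen arrays (13.5, 19.6 and 16.8) and read 181, 392 and 317 in late anagen, a difference of -3.03 or lower, adjusted p = 0.000426. Lce3b was not called, with 372, 208 and 359 against 176, 211 and 228 (0.57 ± 0.25, adjusted p = 0.109). Lce3f passed in the direction of the Lce1 genes by at least 0.87 (adjusted p = 0.0499), at 46.5, 53.0 and 102 in telogen and under the floor in late anagen, and this call was lost with the floor at the median of all values, where its difference was 0. The probe sets of Lce3b and Lce3c can also bind several transcripts.

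**Figure D2:**
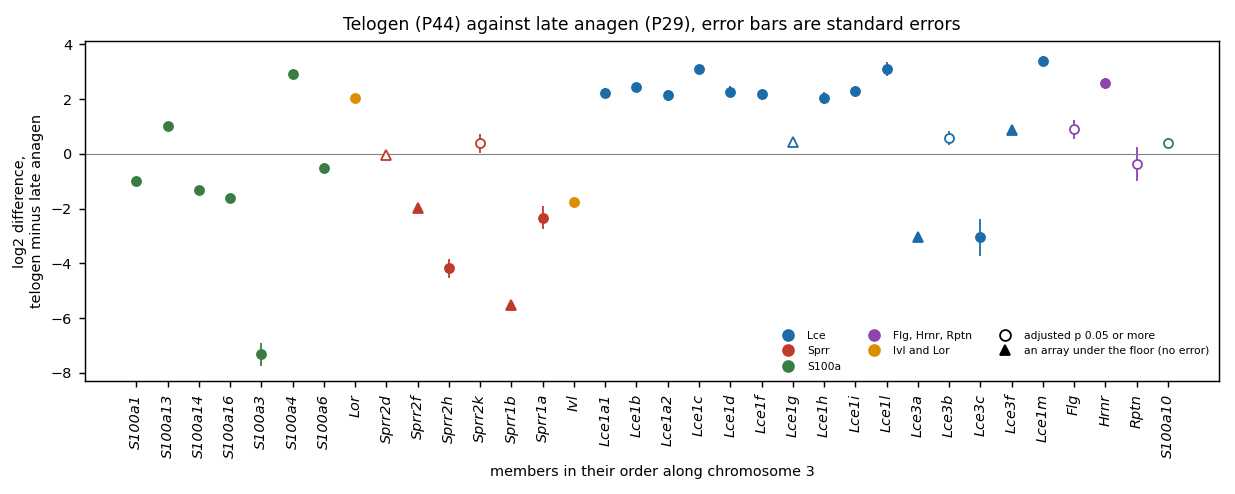
Log2 difference of telogen minus late anagen for each member in chromosome 3 order, with bars of 1 standard error, triangles where an array was under the floor (no bar) and open symbols where the adjusted p was 0.05 or more. The Lce1 genes stand above 0 next to Lce3a and Lce3c below 0, and 4 of the Sprr genes lie well below 0.

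In telogen 4 of the 6 Sprr genes were lower than in late anagen. Sprr1b read 32.1, 66.7 and 182 in telogen and 3733, 3537 and 3195 in late anagen (-5.54 or lower, adjusted p = 0.00055). Sprr2h, the member of the family with the smallest p over the cycle, read 136, 253 and 197 in telogen, against 2247, 4709.9 and 3878 in late anagen (-4.19 ± 0.34, adjusted p = 0.000288). Every telogen array was below every late anagen array for both genes. Sprr1a was less changed, with 3269.9, 9472 and 9939 against 33312, 35786 and 33138 (-2.33 ± 0.42, adjusted p = 0.00491), and one telogen array was well below the other two. Sprr2f was under the floor in telogen (18.8, 14.9 and 23.8) and read 73.3, 189 and 180.5 in late anagen (-1.97 or lower, adjusted p = 0.00529). Sprr2d and Sprr2k were not called, and their arrays overlapped. The probe set of Sprr2h can bind transcripts of other Sprr2 genes.

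Of the S100-fused proteins, hornerin (Hrnr), a filaggrin-like protein, was higher in telogen, at 3393, 4997 and 5146 against 686, 672 and 903 (2.57 ± 0.21, adjusted p = 0.000318). Filaggrin (Flg), which aggregates keratin filaments, read 2149, 3631 and 4362 in telogen, against 2129, 2102 and 1191 in late anagen, and did not pass (0.89 ± 0.34, adjusted p = 0.0708), although the groups of arrays did not overlap. Its F test over the cycle gave an adjusted p of 0.0431, and 0.0538 with the floor at the median. Repetin (Rptn), an envelope precursor, had 392, 1838 and 1986 in telogen and 1192, 1582 and 1644 in late anagen, with overlap and a difference of -0.37 ± 0.61, adjusted p = 0.651.

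S100a3, a cysteine-rich protein of the hair cuticle, had the largest difference among members measured above the floor on all arrays of this contrast. Its signal was 235, 259 and 84.6 in telogen and 28018, 26279 and 29090.4 in late anagen (-7.33 ± 0.42, adjusted p = 0.000108). The epithelial members S100a14 (-1.33 ± 0.15, adjusted p = 0.000853) and S100a16 (-1.63 ± 0.16, adjusted p = 0.000534) were also lower in telogen. So were S100a1 (-1.01 ± 0.13, adjusted p = 0.00149) and S100a6, known as calcyclin (-0.50 ± 0.15, adjusted p = 0.0361). S100a16 read 4237, 6071 and 5326 in telogen and 16027, 15735 and 16027 in late anagen, and S100a1 read 2317, 2189.6 and 2093 against 3923, 4656 and 4756, both without overlap. Opposite to these, S100a4, a protein of fibroblasts and leukocytes, was higher in telogen at 6881, 8648 and 9072 against 911, 1248 and 1080 (2.93 ± 0.18, adjusted p = 0.000132). S100a13, which takes part in the release of FGF1, read 2116, 2391 and 2291 in telogen, against 1091, 1214 and 1068 in late anagen (1.01 ± 0.13, adjusted p = 0.00118). S100a10, the partner of annexin A2, did not pass (0.41 ± 0.15, adjusted p = 0.0646).

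**Figure D3:**
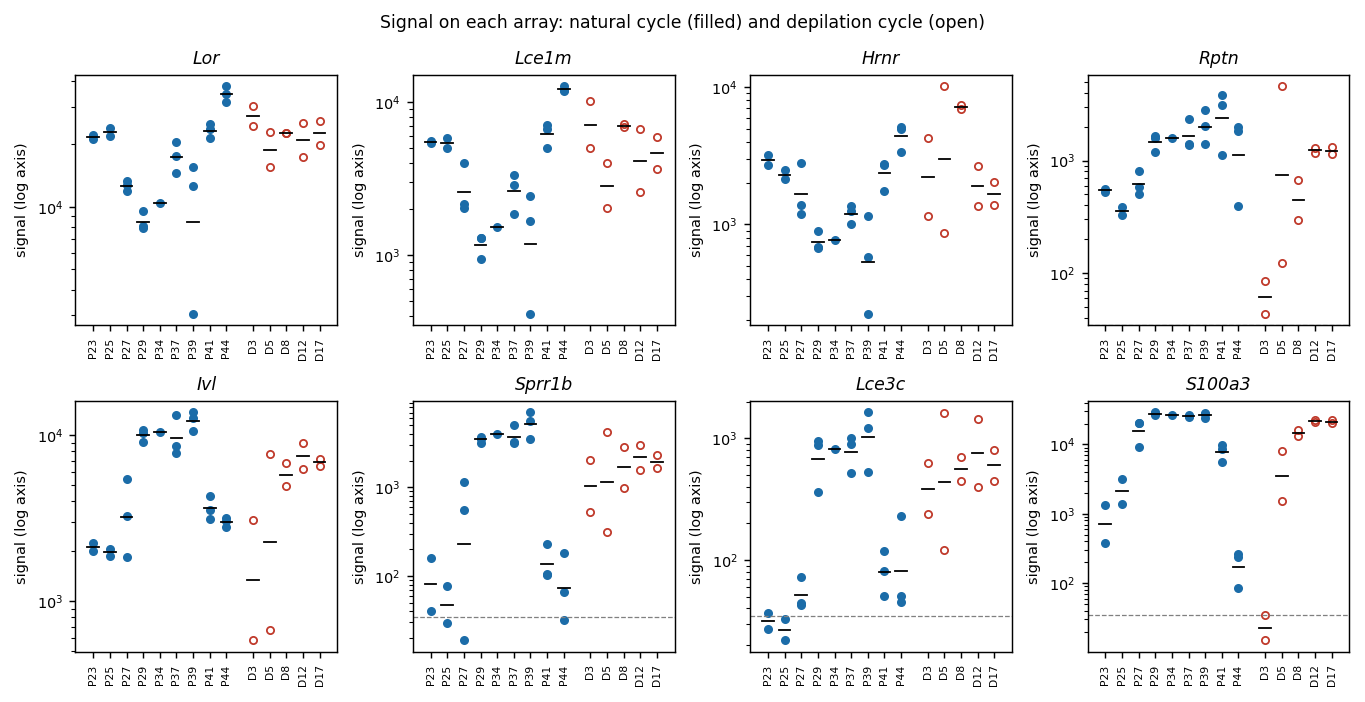
Signal on each array (log axis) of Lor, Lce1m, Hrnr, Rptn, Ivl, Sprr1b, Lce3c and S100a3 by time point, with a bar at the geometric mean and a dashed line at the floor of 34.6. Lor and Lce1m are low at P29, with array P39 replicate 2 lower still, and Ivl, Sprr1b, Lce3c and S100a3 are high from P29 to P39.

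Markers of the cell types in whole skin moved with this contrast. All 11 hair shaft markers measured were lower in telogen, with the sums given above, and inner root sheath markers summed to 4618 to 9125 in telogen and 196821 to 202996 in late anagen (8 of 9 lower in telogen). Suprabasal epidermal markers summed to 94273 to 119646 and 49706 to 52841 (3 of 5 higher, 1 lower), basal markers to 82020.2 to 93902 and 50377 to 56576 (5 of 6 higher), and injury keratins to 12226 to 15788 and 25502 to 29572 (3 of 4 lower). Leukocyte markers summed to 67529.8 to 97379.7 and 12110.3 to 15268 (10 of 10 higher), neutrophil markers to 1004 to 3036 and 1602 to 2781 (3 of 5 higher), and fibroblast markers to 160195 to 234931 and 100792 to 141797 (5 of 8 higher). Their part in the members' differences was not tested.

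**Figure D4:**
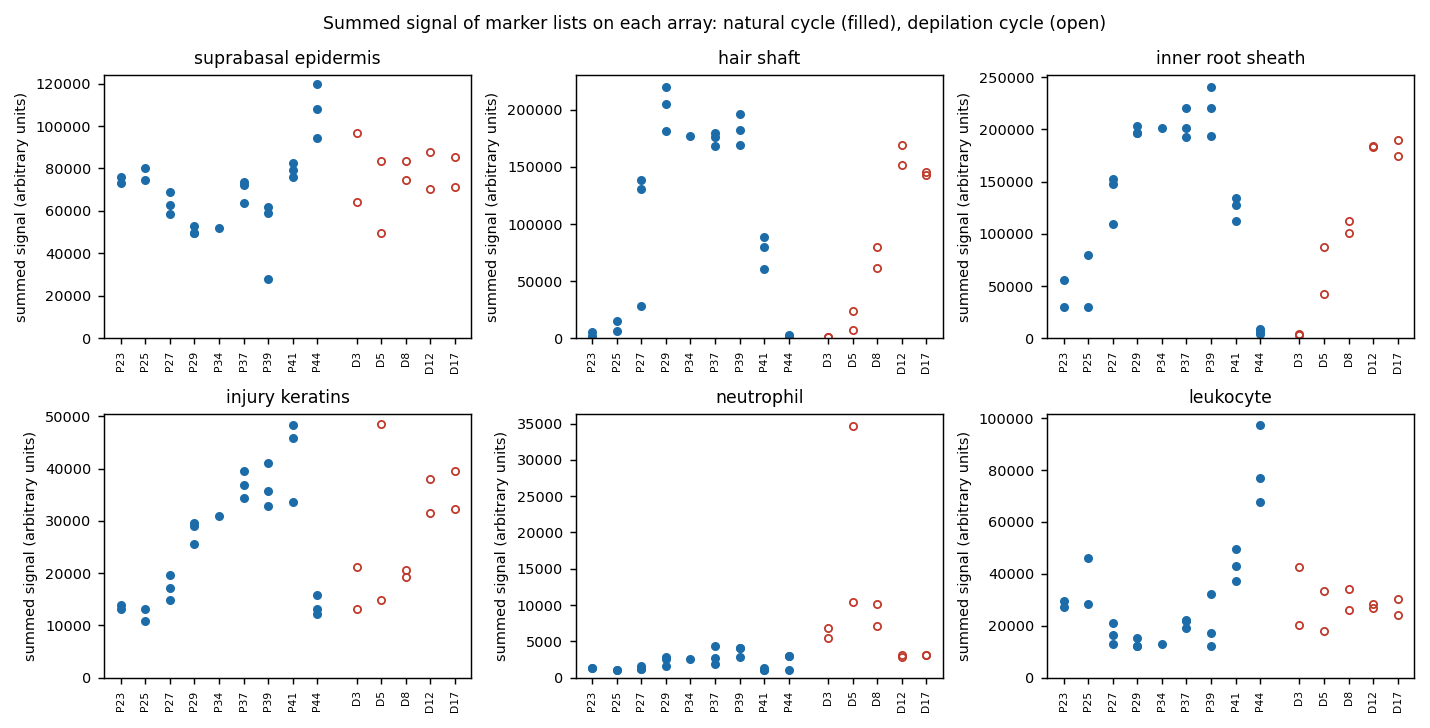
Summed signal (arbitrary units) on each array of 6 marker gene lists by time point. Hair shaft and inner root sheath sums are near 0 at P44 and D3 and high at P29, and the suprabasal sum of P39 replicate 2 is the lowest of early catagen.

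Relative to telogen, early anagen skin had less loricrin, involucrin and Lce transcript and more S100a3. The telogen mice (P44) were older than the early anagen mice (P23 and P25), so phase and age differ together and no step from telogen into anagen was followed. Compared with telogen, 1 of 34 was higher and 18 were lower in early anagen, where 15.4% of all genes were higher and 14.6% lower. The 18 included 12 of the 15 Lce genes, whose median was -1.17 against -0.02 over all genes. Lor read 22052, 21071, 23845 and 21956 on the early anagen arrays, each below the lowest telogen array (-0.65 ± 0.11, adjusted p = 0.0065). For Lce1m the early anagen values were 5386, 5619, 5877 and 4996 (-1.17 ± 0.11, adjusted p = 0.000689), and for Ivl they were 2021, 2236, 1886 and 2068 (-0.55 ± 0.11, adjusted p = 0.0109). Hrnr (-0.77 ± 0.20, adjusted p = 0.0296), Sprr2h (-1.15 ± 0.28, adjusted p = 0.0239), S100a1 (-0.45 ± 0.13, adjusted p = 0.0396) and S100a13 (-0.46 ± 0.13, adjusted p = 0.0345) were also lower. S100a3 alone was higher, at 383, 1344, 1395 and 3209 (2.84 ± 0.72, adjusted p = 0.0265). Suprabasal markers were lower too, with 4 of 5 passing the test and a sum of 73066 to 80089.7, and their part in these differences was not tested. The count was 12, all lower, without P25 replicate 2, P44 replicate 2 or P44 replicate 3. Median centring, which moved the median of all genes by 0.14, left Ivl (adjusted p = 0.0564), S100a1 (0.224) and S100a13 (0.193) below the threshold, and in a joint fit of all arrays Lor (0.136), Ivl (0.464) and Hrnr (0.339) did not pass.

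Between early and mid anagen loricrin, Lce1l and Lce1m fell, and Sprr1a and S100a3 rose. Of the members, 5 were higher in mid anagen and 6 lower, where 6.23% and 12.6% of all genes were. Sprr1a rose from 3546, 5735, 3559 and 7357 to 24229.6, 24038 and 13281 (2.04 ± 0.33, adjusted p = 0.0094), and S100a3 reached 20094, 20157 and 9270.2 (3.66 ± 0.67, adjusted p = 0.0129). S100a1 (0.76 ± 0.15, adjusted p = 0.015), S100a14 (0.92 ± 0.23, adjusted p = 0.0333) and S100a16 (0.73 ± 0.17, adjusted p = 0.0244) were higher as well. Lor fell to 11886, 12757 and 13293 (-0.81 ± 0.11, adjusted p = 0.00522), together with Lce1m (-1.07 ± 0.24, adjusted p = 0.0216), Lce1l, S100a4 (-1.35 ± 0.30, adjusted p = 0.0218), S100a10 and S100a13. Sprr1b read 557, 1158 and 18.9 in mid anagen and was not called, its 3rd array being under the floor. That array, P27 replicate 3, was also the one with the low hair shaft sum, and without it 20 members passed, 9 higher and 11 lower. Without P27 replicate 1 or replicate 2 only 2 passed, and without P23 replicate 1 there were 5. Under median centring, which moved the median of all genes by -0.17, the split was 5 higher and 10 lower. For S100a10, another probe set went against the one used, being higher in mid anagen by 0.93 (adjusted p = 0.0333) where the representative was lower (-0.54 ± 0.13, adjusted p = 0.0321). A second probe set of Lor was not called in this step (-0.38, adjusted p = 0.0515).

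Neither late anagen against mid anagen nor early catagen against late anagen gave a call by limma, where 0% of all genes were called in either direction. In the first step 24 of the 34 members had an unadjusted p under 0.05 and 6 passed the p under 0.01 of the one-way ANOVA used in the study's methods, and in the second these counts were 5 and 2. The shares of all genes at these thresholds are not given here, so the counts are not read as a trait of the members. In early catagen Ivl had a lowest, median and highest value of 7787, 11665 and 13802. Lor had 3051, 15044 and 20371, and its lowest value was on P39 replicate 2. Sprr2h had 7874, 10598 and 15303, all above the late anagen arrays.

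From early to mid catagen 6 members were higher and 12 lower, where 20.6% and 18.5% of all genes were. Among the lower ones were Ivl, Lce3a, Lce3b, Lce3c and 3 Sprr genes. Sprr1b went from 3158, 4290.1 and 7050.1 (lowest, median and highest) in early catagen to 231, 107 and 103 in mid catagen (-5.01 ± 0.33, adjusted p = 6.6e-05). Lce3c went from 516, 954 and 1639 to 81.8, 119 and 51.0 (-3.49 ± 0.40, adjusted p = 0.000455), and Sprr2f (-3.14 ± 0.40, adjusted p = 0.000759), Sprr2h (-2.54 ± 0.23, adjusted p = 0.000167), Ivl (-1.58 ± 0.21, adjusted p = 0.000826) and S100a3 (-1.74 ± 0.17, adjusted p = 0.000198) fell too. Sprr1a was not called, with 27558, 33579 and 31502 in mid catagen (-0.28 ± 0.12, adjusted p = 0.0996). Higher in mid catagen were Lce1l (1.57 ± 0.47, adjusted p = 0.0278), Lce1m (1.81 ± 0.57, adjusted p = 0.0347), Hrnr (1.57 ± 0.53, adjusted p = 0.0444), S100a4 (1.73 ± 0.33, adjusted p = 0.00429), S100a10 and S100a13. Hair shaft markers summed to 168083 to 195866 in early and 61107 to 89066 in mid catagen, and suprabasal markers to 27732 to 73795 and 75786 to 82693, and their part in these differences was not tested. Without P39 replicate 2 the calls were 11 higher and 12 lower, and without P41 replicate 2 they were 1 higher and 10 lower.

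The last step, from mid catagen to telogen, had 4 members higher and 5 lower, where 2.7% and 4.37% of all genes were. Lce1a1 (0.94 ± 0.19, adjusted p = 0.0456), Lce1a2 (0.78 ± 0.16, adjusted p = 0.0436), Lce1h (1.41 ± 0.26, adjusted p = 0.0332) and Lce1m (0.99 ± 0.16, adjusted p = 0.0232) were higher. S100a3 fell from 9911, 5589 and 8716 to the telogen values above (-5.51 ± 0.47, adjusted p = 0.0028), and Sprr1a (-2.19 ± 0.43, adjusted p = 0.0404), Sprr2h (-3.32 ± 0.30, adjusted p = 0.00383), S100a1 (-0.84 ± 0.12, adjusted p = 0.0158) and S100a16 (-0.79 ± 0.16, adjusted p = 0.0424) fell as well. Sprr1a thus fell after mid catagen, whereas Sprr1b had fallen before it, a difference in timing that was not itself tested. Lor did not pass in this step (0.58 ± 0.13, adjusted p = 0.0522). The count was 5 without P41 replicate 1 or P44 replicate 1, and 2 without P41 replicate 2, P41 replicate 3, P44 replicate 2 or P44 replicate 3. Under median centring the split was 2 higher and 5 lower.

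At D3 after depilation, skin had more transcript of Lce3c, Lce3f, Sprr1b and some Lce1 genes than telogen skin, and less of Rptn and S100a3. Of the 34, 9 were higher at D3 and 2 lower, where 13.2% and 18.7% of all genes were, and the median was 0.48 against -0.06 over all genes. The higher ones were 5 Lce genes (Lce1d, Lce1f, Lce1i, Lce3c and Lce3f), Sprr1b, S100a6, S100a10 and S100a16. This contrast shares its telogen arrays with those above, and the groups differ in age and in sex.

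Lce3f read 310.4 and 345 at D3 against 46.5, 53.0 and 102 in telogen (2.37 ± 0.54, adjusted p = 0.00206). Lce3c read 238 and 628 (2.26 ± 0.83, adjusted p = 0.0397), where 1 D3 array was close to the highest telogen array. Sprr1b read 528 and 2018 (at least 3.78, adjusted p = 0.012), both above telogen. The call of Lce3c was lost without either D3 array, P44 replicate 1 or P44 replicate 2, and that of Sprr1b without D3 replicate 2 (adjusted p = 0.14). Lce1f read 8812 and 12419.9 at D3 and 3098, 4741 and 4989.7 in telogen (1.32 ± 0.45, adjusted p = 0.0263). Lce1d (1.17 ± 0.32, adjusted p = 0.00729) and Lce1i (1.12 ± 0.37, adjusted p = 0.0215) were higher by similar amounts, and their arrays did not overlap with telogen. A second probe set of Lce1f was not called in this contrast (0.35, adjusted p = 0.722). Lce1m was not called at D3, with 4998 and 10223 (-0.78 ± 0.53, adjusted p = 0.268).

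Repetin was the member most reduced among those measured above the floor, with 43.5 and 85.7 at D3 against 392, 1838 and 1986 in telogen (-4.21 ± 0.91, adjusted p = 0.00128). S100a3 was under the floor on both D3 arrays (15.0 and 34.2), a difference of -2.32 or lower, adjusted p = 0.00318. S100a16 read 8434 and 10429 (0.86 ± 0.16, adjusted p = 0.000387), S100a10 read 12656 and 13214 (0.50 ± 0.14, adjusted p = 0.0106) and S100a6 read 17753 and 17567 (0.46 ± 0.13, adjusted p = 0.00743). These were above all telogen arrays. Lor (-0.35 ± 0.39, adjusted p = 0.53) and Ivl (-1.17 ± 0.66, adjusted p = 0.18) did not pass, and the D3 arrays of Ivl were far apart, at 581 and 3074. Flg (-1.17 ± 0.62, adjusted p = 0.153), Hrnr (-1.01 ± 0.71, adjusted p = 0.292) and Sprr1a (-1.68 ± 0.69, adjusted p = 0.0642) did not pass either. The count was 6 without D3 replicate 1 and 8 without D3 replicate 2, quantile normalization gave 5 higher and 2 lower, and median centring moved the median of all genes by 0.12.

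Marker sums moved at D3 as well. Neutrophil markers summed to 5466 to 6811 at D3 and 1004 to 3036 in telogen, basal epidermal markers to 105950 to 124537, suprabasal markers to 64062 to 96917, injury keratins to 13187 to 21191, fibroblast markers to 60908 to 84422 and leukocyte markers to 20139 to 42456. Hair shaft markers summed to 798 to 968, with 4 of 11 under the floor on both arrays, and inner root sheath markers to 3058 to 3837. Of the neutrophil genes 1 of 5 was higher than in telogen and 0 lower, the called one being Stfa3 (2.77 ± 0.71, adjusted p = 0.0049, mean signal 4271 against 764), while S100a8 was not called (0.80 ± 1.10, adjusted p = 0.613). Among the other lists 3 of 6 basal genes were higher than in telogen, and 7 of 8 fibroblast, 7 of 10 leukocyte and 8 of 9 inner root sheath genes were lower. Their part in the members' differences was not tested.

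Set against early anagen of the natural cycle, D3 had 18 members higher and 2 lower, where 17% and 25.7% of all genes were. Among the Lce genes 13 of 15 were higher, with a median of 1.69. Lce1d read 8244 and 9609 at D3 and 1587, 1360.2, 1544 and 1546 in early anagen (2.56 ± 0.30, adjusted p = 1.22e-06), and Lce1i (2.58 ± 0.35, adjusted p = 5.36e-06) and Lce1f (2.62 ± 0.42, adjusted p = 4.2e-05) differed by about as much. Lce3c (at least 3.46, adjusted p = 0.00119), Lce3f (at least 2.96, adjusted p = 9.1e-05) and Sprr1b (at least 3.99, adjusted p = 0.004) were higher at D3, and at least 1 early anagen array of each was under the floor. For Sprr1b the early anagen values were 162, 40.9, 29.4 and 76.9. Rptn (-2.85 ± 0.86, adjusted p = 0.0101) and S100a3 (-5.15 or lower, adjusted p = 2.35e-07) were lower. The contrast shares its D3 arrays with the preceding one, so the calls of both are not independent.

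**Figure D5:**
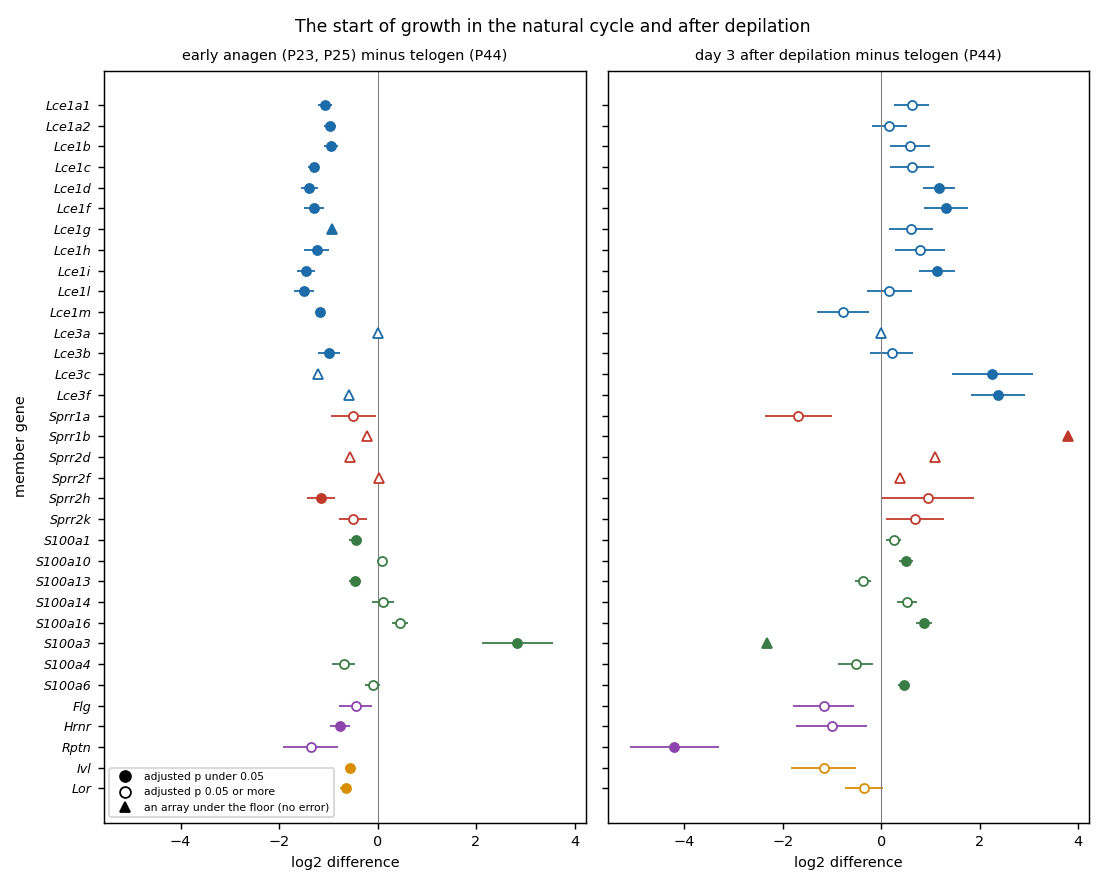
Log2 difference from telogen of each member in early anagen and at D3, both against the same P44 arrays. Most Lce members lie below 0 in early anagen and above 0 at D3.

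Over the 5 time points after depilation 5 of 34 members passed the F test, where 11.7% of all genes did. All were S100a genes: S100a3 (adjusted p = 0.00122), S100a1 (0.0228), S100a10 (0.0317), S100a6 (0.0318) and S100a16 (0.0481). The count was 2 without either D3 array, 11 without either D5 array and 1 without any single D8, D12 or D17 array. From D3 to D5, S100a3 rose to 1528 and 8006 (at least 6.66, adjusted p = 0.00472) and S100a6 fell to 10945 and 10579.9 (-0.71 ± 0.13, adjusted p = 0.0397), so 1 member was higher and 1 lower, where 2.27% and 0.863% of all genes were. Without D3 replicate 1, D3 replicate 2 or D5 replicate 2 the call of S100a3 was the only one among members. Without D5 replicate 1 there were 4, all higher, and under quantile normalization or median centring 1 was higher and 0 lower. The D5 arrays differed in several members, Sprr2d reading 80.6 and 4138, Rptn 122 and 4589 and Lce3f 323 and 1644.

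From D5 to D8 and D12 no member was called by limma, where 0.614% of all genes were higher and 0.155% lower. A joint fit of all arrays called 6 members, and the share of all genes in that fit is not given here. Without D5 replicate 2, 4 members were higher, and without D5 replicate 1, 1 was lower. S100a3 read 16014 and 13171 at D8 and 22807 and 21075 at D12. Lor read 22698 and 22608 at D8 and 17367 and 25159.8 at D12, and Lce1d read 11968 and 10300.5 at D8 and 3152 and 5506 at D12, so for Lce1d the D12 arrays were below those of D8. Sprr1a read 14839 and 9077 at D8, 27874 and 27269.8 at D12 and 26939 and 25109.9 at D17. D17 against D8 and D12 gave 0 calls among members and 0% over all genes. Without adjustment 0 members had a p under 0.05 by limma, and the share of all genes at this threshold is not given here.

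The change from early to mid anagen in the natural cycle was also compared with that from D3 to D5, by an interaction over the arrays of both courses. These steps need not span the same stages of growth. Hair shaft markers summed to 2344 to 14851 in early anagen and 28071 to 138288 in mid anagen. At D3 they summed to 798 to 968 and at D5 to 7117 to 23750. The difference of these steps, natural minus depilation, passed for 4 members, 3 higher and 1 lower, where 3.49% and 8.04% of all genes did, and the median of all genes was -0.11. S100a6 (0.95 ± 0.17, adjusted p = 0.00184), S100a1 (0.86 ± 0.20, adjusted p = 0.00913) and S100a16 (0.72 ± 0.22, adjusted p = 0.0392) were positive and S100a3 was negative (-3.00 or lower, adjusted p = 0.016). S100a1 and S100a16 were higher in mid than in early anagen and were not called from D3 to D5 (-0.10 ± 0.17, adjusted p = 0.777 and 0.01 ± 0.18, adjusted p = 0.984). S100a6 fell from D3 to D5 and was not called in the natural step (0.24 ± 0.14, adjusted p = 0.269). For S100a3 the difference starts from an under-floor D3 value, so its size is a bound. A second probe set of S100a16 was not called (0.78, adjusted p = 0.0771). For S100a10 the representative was not called, while another probe set was (1.42, adjusted p = 0.013). The count was 2 without D3 replicate 1 and 9 without D5 replicate 1, and median centring, which moved the median of all genes by -0.17, gave 1 higher and 1 lower.

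Other genes of cornification were read from lists of the wider pathway. Of 35 partners (keratins, transglutaminases, proteases and lipid enzymes) 32 were tested, and 14 were higher and 8 lower in telogen than in late anagen, where 28.7% and 20.5% of all genes were. Krt1, a suprabasal keratin, was higher (2.59 ± 0.19, adjusted p = 0.000222), as was the epidermal lipoxygenase Alox12b (at least 3.08, adjusted p = 0.00808), and Tgm3, a transglutaminase also of the hair follicle, was lower (-3.82 ± 0.14, adjusted p = 3.19e-05). At D3, where 13.2% of all genes were higher than in telogen and 18.7% lower, 1 partner was higher, the lipid transporter Abca12 (1.86 ± 0.35, adjusted p = 0.000472), and 10 were lower, among them the glucosylceramide synthase Ugcg (-1.84 ± 0.35, adjusted p = 0.000474) and the protease inhibitor Spink5 (-1.80 ± 0.50, adjusted p = 0.00899). In early anagen 0 partners were higher than in telogen and 21 lower, where 15.4% and 14.6% of all genes were.

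Of 12 neighbours in the complex that the symbol rule left out 7 were tested, with 1 higher and 3 lower in telogen than in late anagen, beside the same shares over all genes of 28.7% and 20.5%. The lower ones were the trichohyalin genes Tchhl1 (-7.55 ± 0.36, adjusted p = 6.86e-05) and Tchh (-4.34 ± 0.53, adjusted p = 0.00108), of which trichohyalin is a protein of the inner root sheath, and Prr9 (-5.57 ± 0.50, adjusted p = 0.000386). Kprp was higher (1.52 ± 0.18, adjusted p = 0.000914). At D3 Prr9 (-4.27 or lower, adjusted p = 2.23e-05) and Tchh (-3.84 ± 0.48, adjusted p = 6.93e-06) were lower than in telogen and 0 neighbours were higher (18.7% and 13.2% of all genes).

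Of 25 transcription factors known in epidermal differentiation 21 were tested. In telogen 6 were higher than in late anagen and 8 lower (28.7% and 20.5% of all genes), among them Satb1 (2.47 ± 0.17, adjusted p = 0.000182), Dlx3, which also acts in the hair matrix (-3.75 ± 0.22, adjusted p = 0.000112), and Ovol1 (-2.05 ± 0.12, adjusted p = 0.000108). At D3, 5 were higher than in telogen and 3 lower (13.2% and 18.7% of all genes). The AP-1 subunit Junb was higher (2.17 ± 0.35, adjusted p = 9.26e-05), and Prdm1 (-1.40 ± 0.36, adjusted p = 0.00524) and Dlx3 (-0.82 ± 0.29, adjusted p = 0.0349) were lower. The AP-1 letters reported above for the Sprr windows were not linked to this difference by any test.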

How the data were processed

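Back skin RNA of 33 mice, 1 per array, was measured on the Affymetrix 430 2.0 mouse array. The authors deposited linear intensity values from MAS 5.0, scaled to a common mean. Trimmed means were 497 to 498 on the arrays. Some sample labels (P41, P44 and all depilation arrays) name early anagen, and the days in the titles and the description of the series were used for the phases.

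Values were log2-transformed after raising those below the 25th percentile of the table, 34.6, to this floor. Probe sets above the array median on at least 3 arrays were kept (26988 of 45037), and 0.941% to 3.73% of them were under the floor on an array, which limits what low signals can show. Of all probe sets 34945 had 1 gene symbol, 932 several and 9160 none. Symbols came from the platform annotation, and positions and promoters from RefSeq (GRCm38.p6). Of the 39 members, 35 had a promoter by Entrez identifier, and Lce1f, S100a10, S100a14 and Sprr2j-ps had none.

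Phases were compared by limma 3.58.1 (lmFit and eBayes, R 4.3.3, with package data.table at version 1.17.8) with only the arrays of each pair, as in the study's methods, the depilation steps in a fit of 10 arrays, and contrasts between courses in a fit of all 33 arrays with a mean per time point. The F test of the natural cycle covered 6 phases. P-values were adjusted by Benjamini-Hochberg over all kept probe sets, with calls at an adjusted p under 0.05, and shares over all genes refer to 12867 genes. Members and gene lists were chosen with earlier results of these data known. Array values were to be given for Flg, Hrnr, Rptn, Ivl and Lor and, in each of the Lce, Sprr and S100a families, for the 3 members with the smallest p over the natural cycle, the 3 most changed at D3 among those past the test, and members passing against most of their family, of which the report shows the main ones. Of the other lists (cornification partners, neighbours, transcription factors) the 3 most changed genes past the test were named, and 8 lists of cell type markers were summed. The fits were tested on simulated data first. Alternatives were other floors, no filter, quantile normalization, median centring, a joint fit, sex as a covariate, the methods' ANOVA, a replicate block, other probe sets or time points, and each array left out. Figures were drawn with matplotlib 3.10.9.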

Additional observations from a re-analysis of the deposited data

Results flagged for a closer look

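The lowest or highest array of a phase stood far from the rest, by Dixon's test at the 95% level, in 16 of 102 pairs of gene and group. The rate of about 1 in 20 by chance assumes independent pairs. Here genes shared arrays and groups pooled time points, so the count is not read against that rate. Of the 16 pairs, 10 were the same array, P39 replicate 2, which was the lowest of the 6 early catagen arrays. Its signals were 3051 for Lor (the others 12532 to 20371), 751 for Lce1a1, 1572 for Lce1a2, 483 for Lce1b, 599.9 for Lce1c, 272 for Lce1f, 332 for Lce1h, 664 for Lce1i, 55.5 for Lce1l and 412 for Lce1m. The sum of suprabasal markers was also lowest there, at 27733, and its part in these values was not tested.

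In early anagen P23 replicate 1 was highest for Lce1g (61.3), Lce3c (37) and Sprr2f (37.3), and P25 replicate 2 for Lce3f (74.8), with the other arrays at or near the floor. For Lce3c, Sprr2f and Lce3f all other arrays had been raised to the floor of 34.6, so the gap is set by that step, and the signals of Lce3c as deposited were 21.9 to 32.8 on the other arrays. Sprr1a was highest on P39 replicate 1 in early catagen, at 46462 against 34283 to 37574. Lce1m was lowest on D12 replicate 1 among the D8 and D12 arrays, at 2570.5 against 6705 to 7204.

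The natural step from early to mid anagen was set against the step from D3 to D5 by an interaction test with limma. The steps differed for S100a6 (0.953, adjusted p = 0.00184), S100a1 (0.856, adjusted p = 0.00913) and S100a16 (0.721, adjusted p = 0.0392). They also differed for S100a3 (-3.00 or lower, a bound because both D3 arrays were under the floor, adjusted p = 0.016). A second probe set of S100a16 did not pass (0.78, adjusted p = 0.0771). By hair shaft markers the steps need not span the same stages.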

How the results depend on the processing

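For calls of single members recomputed on the same probe set, 2836 alternative values kept the call and 427 lost it, among them some at a difference of 0, and 0 changed sign. A second probe set of S100a10 was called the opposite way in mid against early anagen. Counts of members that moved by more than 1.5 times were these. The F test after depilation called 5 members, and 3 under quantile normalization, 2 under median centring, 18 in the joint fit and 2 with the replicate block. Early anagen against telogen (19) gave 10 with P25 alone. Mid against early anagen (11) gave 3 without the filter, 19 with the replicate block, 7 by the ANOVA at p under 0.01, 3 after Benjamini-Hochberg, 3 with P23 alone and 0 with P25 alone. Late against mid anagen (0) gave 3 in the joint fit, 6 by the ANOVA at p under 0.01 and 1 with P34 added, and early catagen against late anagen (0) gave 2 by the ANOVA. Telogen against mid catagen (9) gave 3 without the filter, 4 without probe sets that can bind several transcripts, 17 with sex as a covariate and 3 by the ANOVA after Benjamini-Hochberg. D3 against telogen (11) gave 7 under quantile normalization. D5 against D3 (2) gave 1 under quantile normalization, 1 under median centring, 4 in the joint fit and 1 with the replicate block. D8 and D12 against D5 (0) gave 1 with the floor at the median, 1 without the filter and 6 in the joint fit. The growth step (4) gave 2 under median centring. The cause of these moves was not tested, and the shares of all genes under the alternatives are not given here.

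With each array left out in turn the counts ran from 29 to 30 for the F test of the natural cycle, 1 to 11 for that after depilation, 12 to 19 for early anagen against telogen, 2 to 20 for mid against early anagen, 0 to 0 for late against mid anagen and for early catagen against late anagen, 11 to 23 for mid against early catagen, 2 to 5 for telogen against mid catagen, 25 to 27 for telogen against late anagen, 6 to 11 for D3 against telogen, 16 to 20 for D3 against early anagen, 1 to 4 for D5 against D3, 0 to 4 for D8 and D12 against D5, 0 to 0 for D17 and 2 to 9 for the growth step. A phase left with 1 array was assumed to vary like the others. Whether equal replicate numbers pair the samples was not settled. The deviations of 91 such pairs correlated between -0.262 and 0.387, and 18 exceeded 0.1. Between time points of 2 arrays each, both replicates give the same value by construction, as 0.387 for D5 with D3. These values therefore could not decide the question, and the replicate block is reported only here. Signals near the floor limit Lce1g, Lce3a, Lce3f, Sprr2d and Sprr2f, and 8 other kept probe sets of members gave 25 pairs of calls, 1 of them in opposite directions.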
